A study of Mus musculus with 2 samples.

Results

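The lysosomal gene set comprised 47 genes for acid hydrolases and their cofactors, membrane proteins, subunits of the proton pump and transcription factors of the TFEB family. The members were a named list, matched by gene symbol in GENCODE M21, and all 47 were found among the 35275 genes counted. They were measured by RNAseq in the AML12 line of mouse hepatocytes, which is not transformed and was established from mice carrying a transgene for human TGF-alpha, and labelled as male liver of strain CD-1 at 3 months of age. Control cells were untreated, and senescent cells had been exposed repeatedly to sublethal hydrogen peroxide. For each condition the RNA of 3 cultures was combined into 1 library, of 28021941 reads in control cells and 25738075 reads in senescent cells. There was therefore no replicate, no p-value was computed, and every interval given covers counting error only.

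Lysosomes degrade material delivered by endocytosis and autophagy with enzymes that work at acid pH, which the vacuolar proton pump (V-ATPase) maintains. Hepatocytes rely on them to turn over organelles, glycogen, lipid droplets and internalised lipoproteins. TFEB, TFE3 and MITF are related transcription factors that bind E-box sequences in promoters of lysosomal genes, and the activity of lysosomal beta-galactosidase at a raised pH is a common stain for senescent cells.

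The 47 genes together had 183905 reads in control cells and 220909 in senescent cells. After TMM scaling of the libraries the log2 ratio of these sums was 0.49 (95% interval 0.49 to 0.50). Without Ctse and Ctsl, a pair chosen after its values were seen, the other 45 genes had 171621 and 187575 reads and a log2 ratio of 0.36 (0.35 to 0.37). The log2 ratio of senescent over control was positive for 35 of the 46 members with at least 10 reads over both libraries, against 48.9% of the 14383 genes with that depth. The median of these members was 0.23, and that of all such genes was -0.02. Among genes with at least 1000 reads, a filter chosen after seeing the data because the members were abundant, 34 of 41 members lay above 0, against 57.2% of all genes, and the medians were 0.27 and 0.08. The set thus lay above the typical gene by a modest amount, also among abundant genes.

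Genes were called when they had at least 10 reads, a log2 ratio past 1.5 in either direction and an interval free of 0. By that rule 2 members, Ctse and Ctsl, were higher, against 2.71% of all genes tested, and 0 were lower, against 5.6%. At a smaller threshold of 1.5-fold, 9 members were higher, against 12.0% of all genes, and 3 were lower, against 18.0%. The 9 were Ctse, Ctsl, Npc1, Atp6ap2, Grn, Asah1, Ctsb, Atp6v1b2 and Ctsd, and the 3 were Tfeb, Ctso and Ctsc. The share of members called higher was somewhat above that of all genes, and the share called lower was well under it. Intervals were also widened for an assumed coefficient of variation between libraries, each a pool of 3 cultures. At 0.4, Ctse alone was still called higher, against 1.69% of all genes, and 0 members lower, against 3.97%. At 0.1, 9 members were higher, against 11.6% of all genes, and 3 were lower, against 17.3%. Among genes with at least 1000 reads, 9 of 41 members were higher and 1 was lower, against 12.2% and 10.7% of all genes.

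The choice of scaling bears on small ratios. With total counts in place of TMM the log2 ratio of a typical gene moved by -0.11, and the median of all genes was then -0.12. On that scale 32 members lay above 0, against 41.4% of all genes, and Fuca1, Lamp2 and Mcoln1 changed side. At 1.5-fold, total counts gave 7 members higher and 4 lower, against 9.07% and 21.7% of all genes, and Ctsd and Atp6v1b2 were no longer called. The log2 ratio of Ctsl then fell short of 1.5.

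**Figure D1:**
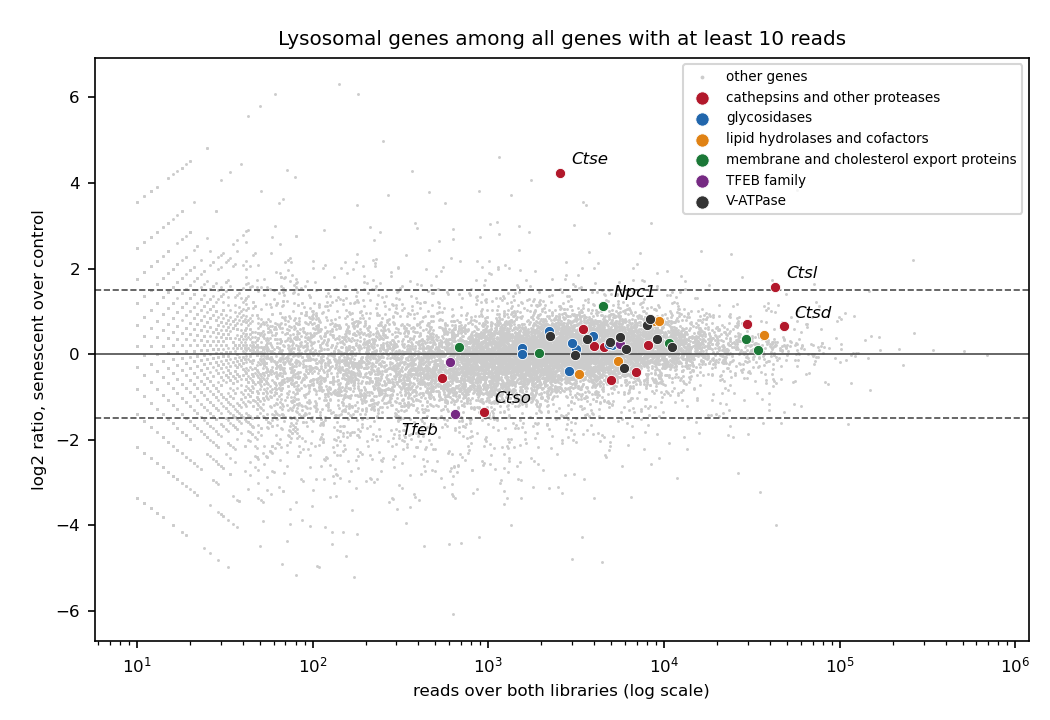
Log2 ratio of senescent over control (vertical axis) against the reads of each gene over both libraries (horizontal axis, log scale), with 1 library per condition. Coloured points are the 46 members with at least 10 reads, grey points are other genes, and dashed lines mark 1.5 and -1.5, past which Ctse and Ctsl lie on the upper side.

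The TFEB family did not move together. Tfeb, which drives lysosomal and autophagy genes, had 491 reads in control cells and 159 in senescent cells, and fell with a log2 ratio of -1.39 (-1.66 to -1.14). This gene lies at chr17:47737030-47792419 on the plus strand of GRCm38. Tfe3, its closest partner in nutrient signalling, had 2810 and 2835 reads and a ratio of 0.24 (0.17 to 0.32). Mitf, best known from melanocytes, had 345 and 259 reads, and its interval of -0.42 to 0.05 held 0. The family thus held 1 gene that was lower in senescent cells and 2 that stayed within 1.5-fold. Of all genes, 12.0% were higher and 18.0% lower, and a class of 3 is too small to be set apart from those shares.

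Per length, Tfe3 was the leading gene of the family in both conditions. Its level was 10.4 TMM-scaled RPKM (reads per kb of exon, corrected for library size) in control cells and 12.3 in senescent cells, and that of Tfeb was 2.98 and 1.13 on the same scale. Mitf stood at 1.91 and 1.69 on this scale, so it came after Tfeb in control cells and before it in senescent cells. As a share of the summed level per length, Tfeb went from 19.4% to 7.46% and Tfe3 from 68.1% to 81.4%. The summed level per length of the family was 15.3 in control cells and 15.2 in senescent cells.

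The promoters were searched because the family binds there and most members lay on the same side of 0. RefSeq windows on GRCm38.p6, from 250 bases before to 50 bases after each start, were matched by symbol for 39 of the 47 members, with 50 windows in all. Ctse, Ctsb, Ctsh, Asah1, Npc1, Atp6v1b2, Atp6v1c1 and Atp6v1h were not matched. The E-box core CACGTG, which reads the same on both strands, and the longer GTCACGTG, whose other strand reads CACGTGAC and which contains the core, were looked for on both strands. The longer motif was present for 11 of 39 members (28.2%), against 2.55% of 27025 genes. Counted by window, it was in 11 of 50 (22.0%), against 2.25% of 32851 windows of the same length. Both motifs were chosen as forms that this family binds in promoters of lysosomal genes. A raised share in a lysosomal list was therefore likely in advance, and it says nothing of the difference between the libraries.

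The longer motif is shown here in capitals, on the strand of the gene, for its first match in each of the 11 promoters, with up to 16 bases on either side. The stretches, from RefSeq on GRCm38.p6, are Ctsa at chr2:164833743-164833782 on the plus strand, Atp6v0b at chr4:117887344-117887383 on the minus strand, Cln3 at chr7:126583336-126583375 on the minus strand, Ctsd at chr7:142388049-142388077 on the minus strand, Mcoln1 at chr8:3500430-3500469 on the plus strand, Lamp1 at chr8:13159117-13159156 on the plus strand, Atp6v0d1 at chr8:105566046-105566085 on the minus strand, Glb1 at chr9:114401012-114401051 on the plus strand, Naglu at chr11:101070003-101070042 on the plus strand, Lgmn at chr12:102439120-102439159 on the minus strand and Gla at chrX:134601178-134601217 on the minus strand.
Ctsa: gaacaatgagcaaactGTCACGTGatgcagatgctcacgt
Atp6v0b: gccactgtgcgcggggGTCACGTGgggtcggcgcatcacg
Cln3: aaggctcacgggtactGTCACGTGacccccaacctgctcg
Ctsd: tccccCACGTGACctgtatccagtcattc
Mcoln1: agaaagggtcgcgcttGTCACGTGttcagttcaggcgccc
Lamp1: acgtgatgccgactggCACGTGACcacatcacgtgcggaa
Atp6v0d1: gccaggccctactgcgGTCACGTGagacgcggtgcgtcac
Glb1: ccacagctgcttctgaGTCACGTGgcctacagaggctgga
Naglu: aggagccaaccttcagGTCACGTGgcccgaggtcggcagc
Lgmn: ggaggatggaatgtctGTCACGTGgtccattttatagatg
Gla: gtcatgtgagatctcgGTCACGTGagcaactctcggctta

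Of 15 matches to the longer motif in these 11 windows, 11 began within 100 bases of the start. Cln3, Ctsa, Ctsd and Mcoln1 each held 2 matches, which in Cln3 overlap as a palindrome. The holders belonged to the proteases (Ctsa, Ctsd and Lgmn), the glycosidases (Glb1, Gla and Naglu), the membrane proteins (Lamp1, Cln3 and Mcoln1) and the V-ATPase (Atp6v0b and Atp6v0d1). No match was found in the windows of the 4 lipid hydrolase genes with an entry or of Tfeb, Tfe3 and Mitf. The core alone was also in the windows of Ctsf, Ctsl, Gaa and Atp6v1a, which made 15 of 39 members (38.5%), against 8.09% of genes.

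The richest window was that of Lamp1, with 4 cores between 61 and 15 bases before the start. It is shown with the core in capitals, and lies at chr8:13158911-13159210 on the plus strand. The window of Ctsl, the most raised member with an entry, is shown beside it. It lies at chr13:64370471-64370770 on the minus strand, with 1 core, 236 bases before the RefSeq start. The whole window lies inside the GENCODE span of Ctsl, which on this strand begins at 64370890. Its core was thus not upstream of the gene as annotated there.
Lamp1: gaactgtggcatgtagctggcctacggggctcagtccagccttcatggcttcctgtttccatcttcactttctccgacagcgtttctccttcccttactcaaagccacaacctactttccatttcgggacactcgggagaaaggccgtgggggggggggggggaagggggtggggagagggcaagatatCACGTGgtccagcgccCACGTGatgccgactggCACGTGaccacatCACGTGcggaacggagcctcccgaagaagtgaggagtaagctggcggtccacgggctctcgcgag
Ctsl: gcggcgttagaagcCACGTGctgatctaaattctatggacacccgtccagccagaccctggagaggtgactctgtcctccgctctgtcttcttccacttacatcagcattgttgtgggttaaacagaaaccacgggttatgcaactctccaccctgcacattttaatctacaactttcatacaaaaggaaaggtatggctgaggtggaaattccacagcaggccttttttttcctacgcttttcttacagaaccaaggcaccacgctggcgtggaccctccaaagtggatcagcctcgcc

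Members with and without the longer motif had overlapping ratios. The median log2 ratio was 0.35 for the 11 with it, between -0.40 for Naglu and 0.66 for Ctsd. It was 0.18 for the 27 tested members whose windows lacked it, between -1.39 for Tfeb and 1.58 for Ctsl. A ratio above 0 was found for 10 of the 11 and for 18 of the 27. Members without a window are in neither group. They include Ctse, Npc1, Asah1, Ctsb and Atp6v1b2, which were called higher at 1.5-fold, and Ctsh, Atp6v1c1 and Atp6v1h, which were not called. The comparison therefore leaves out many of the most raised members. A match describes the letters of the window and was not read as a bound site.

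**Figure D2:**
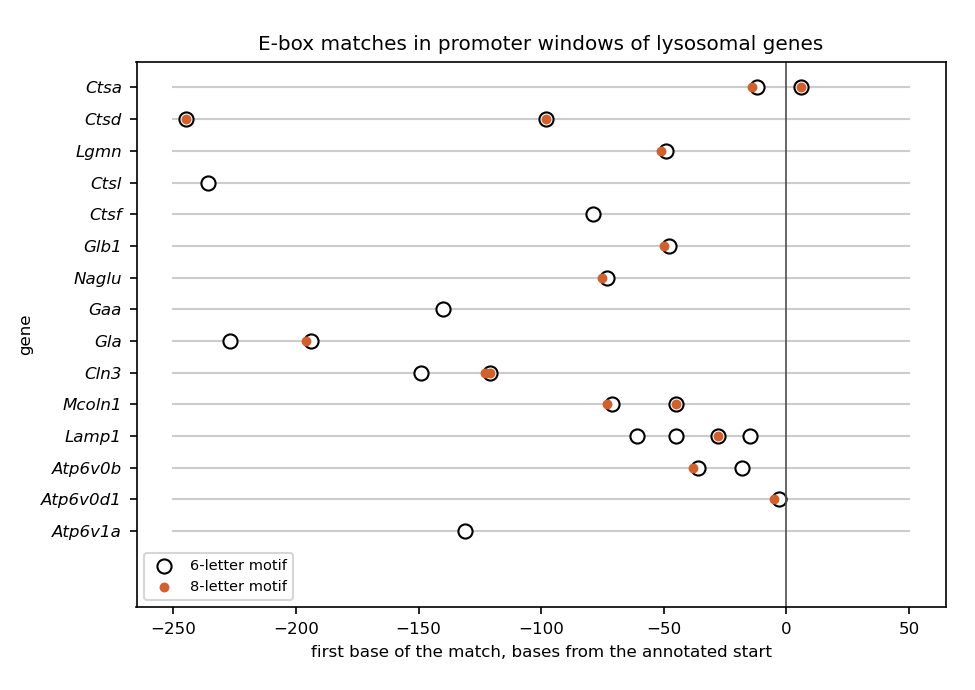
Position of E-box matches in the promoter windows of the 15 members that hold at least 1, given as bases from the annotated start (horizontal axis), 1 gene per line. Open circles are the 6-letter core and filled points the 8-letter motif, drawn at the first base of each match, and most lie within 100 bases before the start.

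Among the proteases, Ctsd was the most abundant gene per length in both libraries. This gene for the main lysosomal aspartic protease had 20439 reads in control cells and 27489 in senescent cells, and its level per length rose from 299 to 471 TMM-scaled RPKM. The log2 ratio was 0.66 (0.63 to 0.68). Ctsb, for a cysteine protease, had 12448 and 17276 reads and rose with a ratio of 0.70 (0.67 to 0.74). In Ctsb, 12.8% of the exon bases overlap the oppositely directed Fdft1, which had 2903 and 1924 reads, so its counts are uncertain to that extent because the use of strand in counting was not given in the sources used here.

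Ctsl, for cathepsin L, had 12135 reads in control cells and 30912 in senescent cells, and rose 2.99-fold (log2 ratio 1.58, interval 1.55 to 1.61). The gene is ENSMUSG00000021477 at chr13:64359337-64370890 on the minus strand. On the scale per length it went from 64.3 to 192 TMM-scaled RPKM, moving from place 4 to place 2 among the 13 protease genes. Its longest coding transcript of 6168 bases shares stretches of 149 to 977 bases, at 95.1% identity or more, with transcripts of 25 other genes, so part of its reads may have been assigned differently.

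Ctse, for cathepsin E, an aspartic protease of endosomes that is found mostly in gastric and immune cells, showed the greatest ratio of the 47 genes. It had 149 reads in control cells and 2422 in senescent cells, which was 18.9-fold higher, with a log2 ratio of 4.24 (4.01 to 4.50). The gene is ENSMUSG00000004552 at chr1:131638306-131675505 on the plus strand. It ranked 21 from the top among 14383 genes tested. Per length it went from 1.62 to 30.8 TMM-scaled RPKM, from place 12 to place 6 of the 13 proteases. Even so its level per length in senescent cells was below those of Ctsd, Ctsl, Ctsb, Ctsz and Lgmn.

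Other proteases were lower in senescent cells. Ctso, for cathepsin O, fell from 709 to 238 reads, with a log2 ratio of -1.34 (-1.56 to -1.13). Ctsc, for the dipeptidyl peptidase that activates granule serine proteases, fell from 3189 to 1792 reads, with a ratio of -0.60 (-0.69 to -0.52). Ctsf had 346 and 200 reads (-0.56, interval -0.82 to -0.31), and passed 1.5-fold with total counts or upper quartiles. Ctsh, for an aminopeptidase, had 4185 and 2695 reads (-0.41, interval -0.48 to -0.34). These 4 genes had intervals wholly under 0, while their neighbours Ctsb, Ctsd and Ctsl had intervals wholly above it.

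The remaining genes of the class were not called at 1.5-fold. Lgmn, for the asparaginyl endopeptidase legumain, which processes cathepsins, had 1510 and 1929 reads and a log2 ratio of 0.58 (0.49 to 0.68), just short of 1.5-fold. Ctsz had 4097 and 4048 reads (0.21, interval 0.15 to 0.28). Tpp1, for a tripeptidyl peptidase, had 2031 and 1964 (0.18, interval 0.09 to 0.27). Ctsa, the protective protein of beta-galactosidase and neuraminidase, had 2325 and 2223 (0.16, interval 0.08 to 0.25). Ctsk, the osteoclast collagenase, had 2 and 5 reads and a ratio of 1.17 with an interval of -1.06 to 4.94, so no difference was detectable at this depth. The 12 tested genes had a median of 0.20 with 4 higher and 2 lower at 1.5-fold, beside 12.0% and 18.0% of all genes, and the widest spread of the 6 classes.

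**Figure D3:**
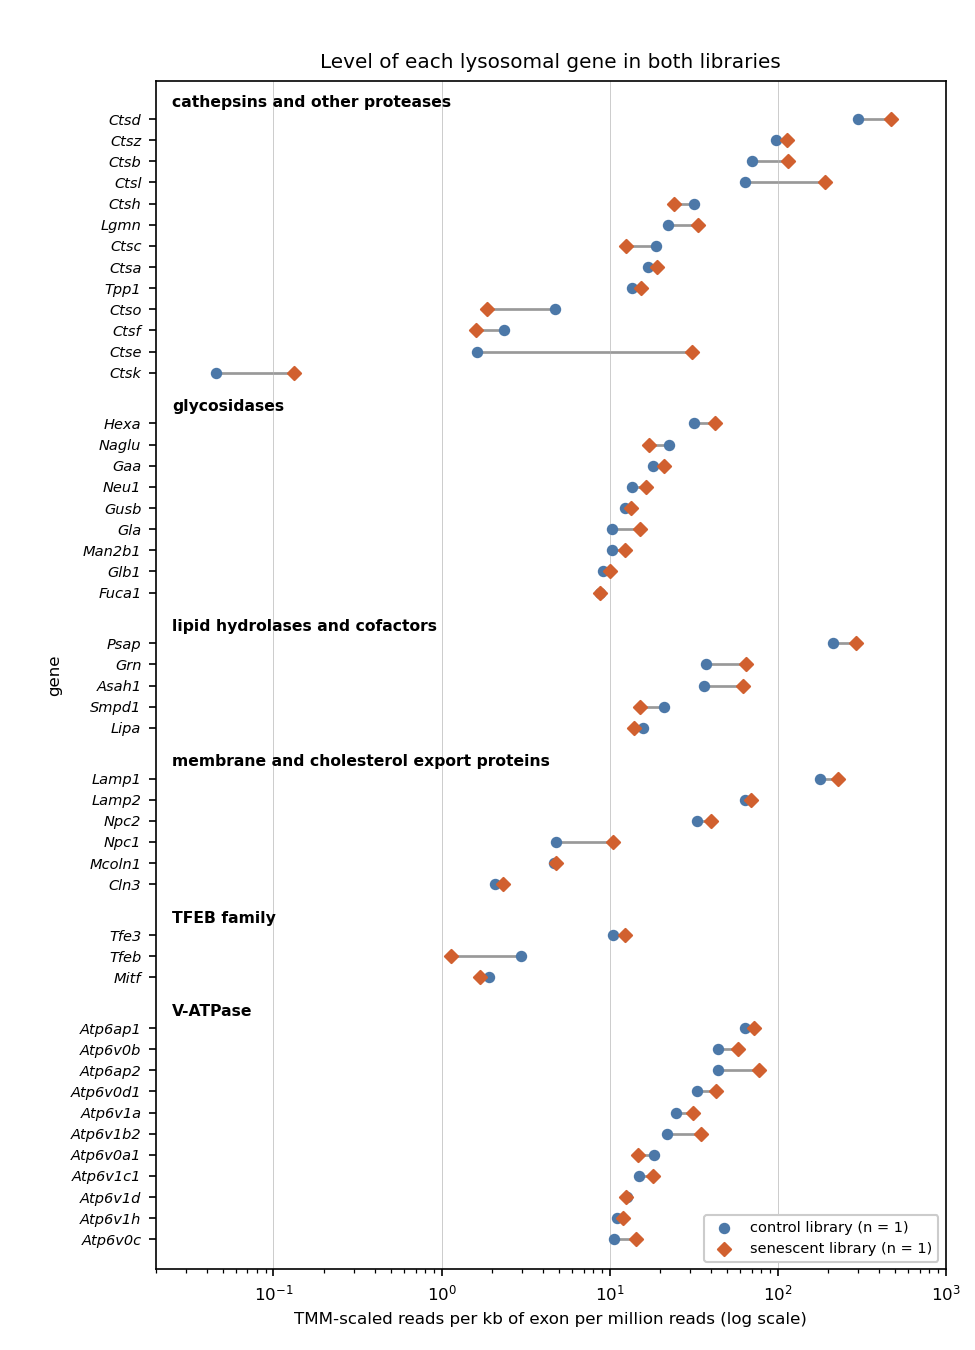
Level of each of the 47 genes in the control library (circles) and the senescent library (diamonds), in TMM-scaled RPKM on a log scale, grouped by class. Levels per length span from under 1 for Ctsk to 471 for Ctsd, and the longest line is that of Ctse.

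No glycosidase gene passed 1.5-fold in either direction, and 8 of 9 had a log2 ratio above 0, of which Fuca1 was under 0 with total counts or upper quartiles. Of all genes, 48.9% lay above 0 and 12.0% and 18.0% were called higher and lower. Glb1, which encodes lysosomal beta-galactosidase, had 804 reads in control cells and 754 in senescent cells. Its log2 ratio of 0.14 had an interval of -0.01 to 0.28, so no difference was detectable at this depth. Per length it stood at 9.19 and 10.1 TMM-scaled RPKM, with Fuca1 the single glycosidase gene under it in both libraries. Of its exon bases, 5.5% are shared with Tmppe on the same strand, which had 628 and 859 reads, so the split between them is uncertain.

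Gla, for alpha-galactosidase A, showed the highest ratio of the class, with 985 and 1231 reads and 0.55 (0.43 to 0.67). Hexa, for the alpha subunit of hexosaminidase A, had 1847 and 2107 reads and 0.42 (0.33 to 0.51). Neu1, for sialidase, had 1478 and 1518 reads and 0.27 (0.16 to 0.37). These 3 intervals lay above 0. Man2b1, for alpha-mannosidase, had 2420 and 2445 reads and 0.24 (0.16 to 0.33). Gaa, the acid glucosidase of glycogen breakdown, had 2537 and 2516 reads and 0.22 (0.14 to 0.30). Gusb, for beta-glucuronidase, had 1625 and 1509 reads and 0.12 (0.02 to 0.22). Equal reads correspond to a ratio above 0 here because the senescent library was the smaller after scaling. Fuca1, for alpha-fucosidase, had 835 and 717 reads and an interval of -0.14 to 0.16. Naglu, for the glucosaminidase of heparan sulfate breakdown, had 1742 and 1126 reads and -0.40 (-0.51 to -0.29), and was the member of the class with an interval under 0. The class had a median of 0.22.

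Among lipid hydrolases and cofactors, 2 of 5 genes were higher at 1.5-fold and 0 were lower, beside 12.0% and 18.0% of all genes, and a class of 5 is too small to be set apart from those shares. Asah1, for acid ceramidase, rose from 3600 to 5234 reads, with a log2 ratio of 0.77 (0.71 to 0.83). Grn, for progranulin, a precursor cleaved to granulins in lysosomes, rose from 3809 to 5577 reads, with 0.78 (0.72 to 0.84). Psap, the precursor of the saposins that present sphingolipids to their hydrolases, had 16976 and 19878 reads and 0.46 (0.43 to 0.49). Per length, Psap came next after Ctsd among the 47 genes, at 213 TMM-scaled RPKM in control cells and 292 in senescent cells.

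The other lipid genes had ratios under 0. Smpd1, for acid sphingomyelinase, which forms ceramide, had 2032 and 1262 reads and a log2 ratio of -0.46 (-0.56 to -0.36). Lipa, for acid lipase, which releases cholesterol and fatty acids from lipoprotein and droplet lipids, had 3113 and 2362 reads and -0.17 (-0.25 to -0.09). The genes for the enzymes that form and degrade ceramide thus lay on opposite sides of 0, with intervals that did not overlap. The median of the class was 0.46.

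All 6 genes for membrane and cholesterol export proteins had a log2 ratio above 0 with TMM, and Lamp2 and Mcoln1 were under 0 with total counts. Npc1, which exports cholesterol across the lysosomal membrane, had 1572 reads in control cells and 2940 in senescent cells and rose with a ratio of 1.13 (1.04 to 1.22). Its soluble partner Npc2, which hands cholesterol to it, had 5267 and 5398 reads and 0.27 (0.21 to 0.32). Npc1 rose 2.19-fold and Npc2 stayed within 1.5-fold, and their intervals did not overlap. Of the exon bases of Npc1, 4.5% overlap the oppositely directed Rmc1, which had 989 and 1233 reads. Per length Npc1 remained lower, at 4.78 and 10.5 TMM-scaled RPKM beside 33.3 and 40.02 for Npc2.

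Lamp1, for a glycoprotein that coats the lysosomal membrane, had 13967 and 15167 reads and a log2 ratio of 0.35 (0.32 to 0.38). Lamp2, its relative with a part in chaperone-mediated autophagy, had 17814 and 16344 reads and 0.11 (0.07 to 0.14), or -0.0016 with total counts. Cln3, for a membrane protein mutated in juvenile Batten disease, had 348 and 332 reads and an interval of -0.06 to 0.38. Mcoln1, for a calcium release channel, had 1031 and 904 reads and an interval of -0.09 to 0.17. No difference was detectable for Cln3 or Mcoln1 at this depth, and the class had a median of 0.21. Exons of Lamp1 (9.3% of bases) and Cln3 (7.6%), and in other classes of Hexa (12.8%), Atp6v0b (11.8%) and Ctsa (10.5%), overlap oppositely directed genes that had at most 119 reads in a library.

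Of 11 V-ATPase genes, 9 had a log2 ratio above 0, 2 were higher at 1.5-fold and 0 were lower, beside 12.0% and 18.0% of all genes, with a median of 0.35 and a range of -0.31 to 0.82. Atp6ap2, the accessory subunit also known as the prorenin receptor, rose from 3344 to 5022 reads, with 0.82 (0.75 to 0.88). Atp6v1b2, for the B subunit found in most tissues, rose from 3379 to 4611 reads, with 0.68 (0.61 to 0.74). Atp6ap1, for the other accessory subunit, had 5656 and 5425 reads and 0.17 (0.12 to 0.22).

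Of the cytosolic V1 sector, which hydrolyses ATP, the 5 member genes had 14971 and 16213 reads in sum and a log2 ratio of 0.34 (0.31 to 0.38). Atp6v1a, for the catalytic A subunit, had 4351 and 4726 reads and 0.35 (0.29 to 0.41). Atp6v1c1 had 2423 and 2531 reads and 0.29 (0.21 to 0.37). Atp6v1h, for the regulatory H subunit, had 3125 and 2912 reads and 0.13 (0.05 to 0.20), and Atp6v1d, of the central stalk, had 1693 and 1433 reads with an interval of -0.11 to 0.09. The A and B subunits, which assemble into a single hexamer, thus both had intervals above 0, with that of B the higher.

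The membrane V0 sector carries the protons. Its 4 member genes had 8921 and 8482 reads in sum and a log2 ratio of 0.16 (0.11 to 0.20). By median the sectors came in the other order, at 0.38 for the V0 members and 0.29 for the V1 members. Atp6v0a1 alone of the V0 members lay under 0. Atp6v0b had 2642 and 2970 reads and 0.40 (0.32 to 0.47). Atp6v0d1, which joins the sectors, had 1726 and 1898 reads and 0.37 (0.27 to 0.46). Atp6v0c, for the proteolipid of the ring, had 1045 and 1204 reads and 0.43 (0.31 to 0.55). The copy Atp6v0c-ps2, identical over 99.8% of 465 bases, had 1876 and 2245 reads, and the split between them is uncertain. Taken as a pair they had 2921 and 3449 reads and a ratio of 0.47 (0.40 to 0.54), which does not give the direction of Atp6v0c alone.

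Atp6v0a1, for an a subunit that lines the path of the protons, had 3508 and 2410 reads and the lowest log2 ratio of the 11 V-ATPase members, -0.31 (-0.39 to -0.24). The a subunit has 4 genes, which direct the pump to different membranes. Tcirg1, for a3, had 3099 and 2793 reads and 0.08 (0.01 to 0.15), which was under 0 with total counts. Atp6v0a2 had 1845 and 2048 reads and 0.38 (0.29 to 0.47). Per length, Tcirg1 led in both libraries, at 23.2 and 24.5 TMM-scaled RPKM, followed by Atp6v0a1 at 18.4 and 14.8 and Atp6v0a2 at 9.43 and 12.3. Atp6v0a4, the kidney form, had 32 and 33 reads. The share of Atp6v0a1 in the summed level per length of the 4 genes was 35.9% in control cells and 28.6% in senescent cells, and that of Atp6v0a2 was 18.4% and 23.7%.

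**Figure D4:**
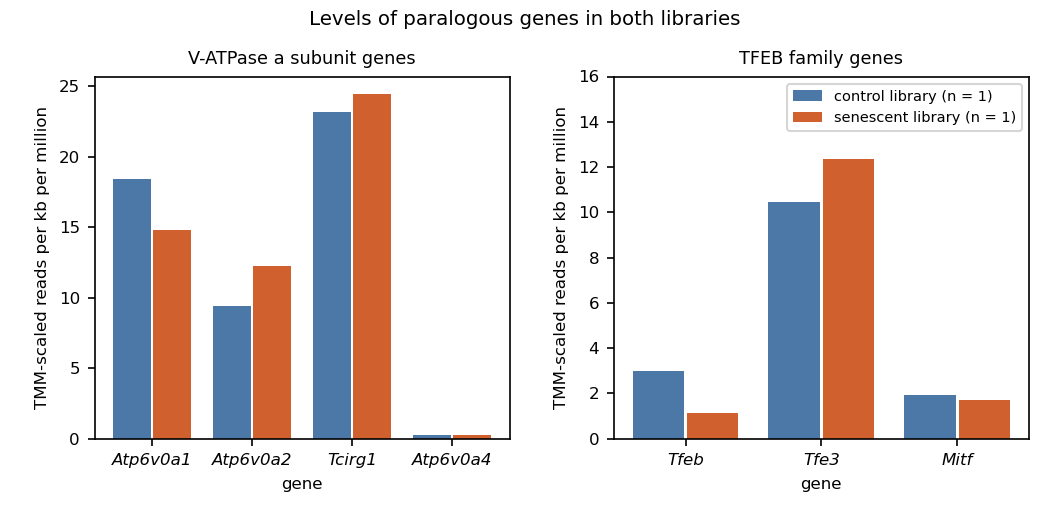
Levels of the genes for the V-ATPase a subunit (left) and of the TFEB family (right) in the control and senescent libraries, in TMM-scaled RPKM, 1 bar per library. Tfeb drops from 2.98 to 1.13 while Tfe3 stands at 10.4 and 12.3, and Atp6v0a1 and Atp6v0a2 differ in opposite directions.

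The 14 other genes of the pump gave no call at 1.5-fold with TMM, beside 12.0% of all genes higher and 18.0% lower. The 9 with at least 10 reads had a median log2 ratio of 0.08, or -0.027 with total counts. Atp6v1f was the most abundant per length, at 127 TMM-scaled RPKM in control cells and 128 in senescent cells. Atp6v0e2 had the lowest ratio, with 464 and 265 reads and -0.58 (-0.80 to -0.36), and was called lower with total counts (-0.68) or upper quartiles (-0.62). Atp6v1b1, Atp6v1e2, Atp6v1g3 and Atp6v0d2, forms known from kidney, testis or osteoclasts, had 0 reads in both libraries, and Atp6v1c2 had 1 and 0. These 5 forms were thus at or under the floor of 3 reads in both conditions.

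**Figure D5:**
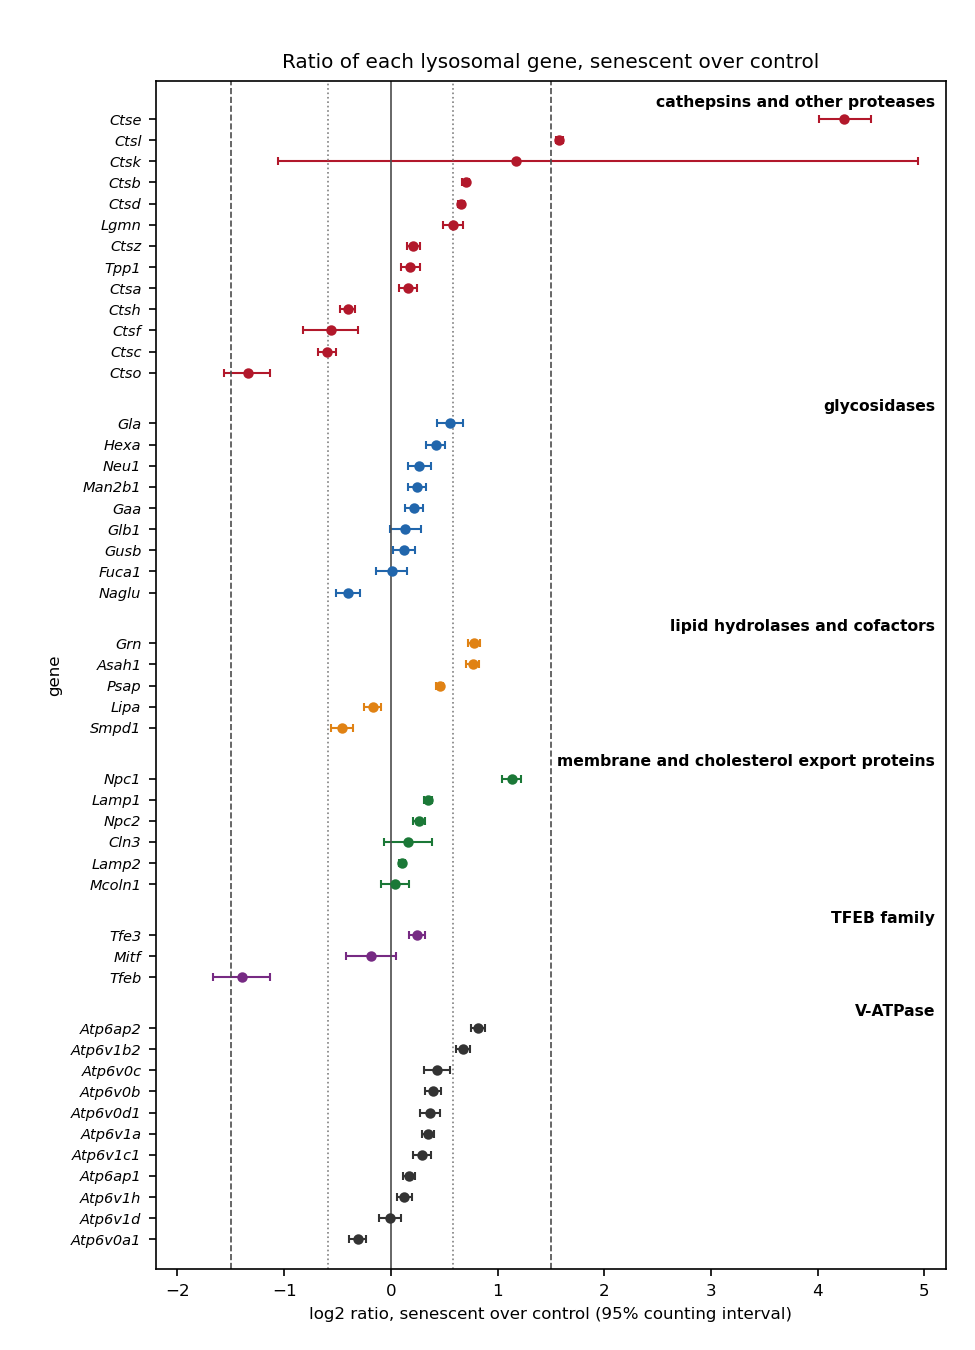
Log2 ratio of senescent over control for the 47 genes with 95% counting intervals, 1 library per condition, grouped by class. Dashed lines mark 1.5 and -1.5, dotted lines mark 1.5-fold, and most genes lie between 0 and the upper dotted line with TMM scaling.

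Other lysosomal hydrolases and activators, 32 genes outside the set, had a median log2 ratio of -0.16, beside -0.02 for all genes. Of 31 tested, 12 had a log2 ratio above 0, against 48.9% of all genes, and 1 was higher at 1.5-fold, against 12.0%. There were 5 lower, a share near the 18.0% of all genes, and 9 with total counts and 8 with upper quartiles, against 21.7% and 19.3% of all genes. Among the lower genes were Acp5, for an acid phosphatase, with 115 and 48 reads (-1.02, interval -1.55 to -0.53), Idua, for iduronidase, with 138 and 61 (-0.94, interval -1.41 to -0.50), Siae, for a sialic acid esterase, with 655 and 321 (-0.80, interval -0.997 to -0.60) and Smpdl3a with 72 and 40 (-0.61, interval -1.21 to -0.04). Hyal1, for a hyaluronidase, rose from 176 to 345 reads (1.20, interval 0.93 to 1.47), and 50.8% of its exon bases are shared with Naa80 on the same strand, so that this value is uncertain. Exons of Siae overlap the oppositely directed Tbrg1 over 7.1% of bases, and those of Idua overlap Dgkq over 2.9%, which likewise makes their values less certain. Scpep1, for a serine carboxypeptidase, was the most abundant per length, at 85.5 TMM-scaled RPKM in control cells and 75.9 in senescent cells. The positive median of the hydrolases in the set therefore did not extend to the remaining lysosomal hydrolases.

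Sorting of new enzymes to lysosomes was represented by 8 genes with a median log2 ratio of 0.18, of which 2 were higher at 1.5-fold and 0 lower, beside 12.0% and 18.0% of all genes. Igf2r, the larger receptor for mannose-6-phosphate, rose from 1599 to 2557 reads (0.91, interval 0.82 to 0.998). Scarb2, the carrier of glucocerebrosidase, rose from 1707 to 2487 reads (0.77, interval 0.68 to 0.86). M6pr, the smaller receptor and the most abundant of the list per length, had 8443 and 7445 reads and 0.05 (0.00 to 0.09), which was under 0 with total counts.

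Of 22 other membrane protein genes, 21 were tested, 1 was higher and 2 were lower at 1.5-fold, both under the 12.0% and 18.0% of all genes, and the median was 0.15. Tmem106b, for a lysosomal membrane protein linked to progranulin, fell from 17480 to 6003 reads (-1.31, interval -1.35 to -1.27). Per length it stood at 86.7 TMM-scaled RPKM in control cells and 34.9 in senescent cells. Tmem175, for a potassium channel, fell from 408 to 181 reads (-0.94, interval -1.20 to -0.69), and 35.3% of its exon bases overlap the oppositely directed Dgkq, which makes the value uncertain. Slc36a1, for an amino acid exporter, rose from 1007 to 1677 reads (0.96, interval 0.85 to 1.08). Per length, Laptm4a led the list in control cells with 176 TMM-scaled RPKM and Cd63 in senescent cells with 165.

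Cystatins inhibit cysteine cathepsins. Cstb, the most abundant of 4 genes per length, had 6161 and 7778 reads and a log2 ratio of 0.57 (0.52 to 0.61), and Cst3, the secreted cystatin C, had 3569 and 2483 reads and -0.29 (-0.37 to -0.22). Cst6 had 0 reads in control cells and 13 in senescent cells, and Cst7 had 0 reads in both. Against a floor of 3 reads in the control library Cst6 was at least 5.08-fold higher, a bound that leaves out counting error. The lower end of its counting interval was a log2 ratio of 1.84. The median of the 3 tested was 0.57, also with Cst6 at its bound. With at least 100 reads, where Cst6 drops out, it was 0.14. At 1.5-fold 1 gene, Cst6, was higher and 0 were lower, beside 12.0% and 18.0% of all genes. The ratio of Ctsl exceeded those of both abundant inhibitor genes.

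The Ragulator, Rag GTPase and folliculin genes control TFEB and TFE3 at the lysosomal surface. Their median log2 ratio was 0.02 over 11 tested of 12. It was -0.085 with total counts, -0.017 with upper quartiles and 0.12 with at least 1 or at least 1000 reads. At 1.5-fold 2 genes were higher and 1 was lower, beside 12.0% and 18.0% of all genes. Rragc rose from 1979 to 3176 reads (0.91, interval 0.83 to 0.99) and Fnip2, for a folliculin partner, from 970 to 1461 (0.82, interval 0.70 to 0.94), and 7.9% of the exon bases of Rragc overlap an oppositely directed gene with 75 and 109 reads. Rragb fell from 506 to 280 reads (-0.62, interval -0.84 to -0.41). Rragd had 1 and 8 reads, with a ratio of 2.33 and an interval of 0.33 to 8.70. Lamtor2 was the most abundant of the list per length, at 45.6 TMM-scaled RPKM in control cells, and Rraga in senescent cells, at 55.9.

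The label was read against markers of the cell types. Of 14 hepatocyte markers 13 were tested, with 2 higher and 4 lower at 1.5-fold, beside 12.0% and 18.0% of all genes, and the summed level per length was 4386 TMM-scaled RPKM in control cells and 5249 in senescent cells. Krt8, an epithelial keratin, was the most abundant, at 2097 and 2981 on the same scale, and its partner Krt18 stood at 969 and 1709.9. Without these keratins, left out after their values were seen, the other 12 markers summed to 1319 in control cells and 558 in senescent cells, the opposite direction. Ttr, for transthyretin, fell from 23146 to 10486 reads (-0.91, interval -0.95 to -0.88). The transcription factor gene Hnf4a had 8187 and 7705 reads, while Alb, for albumin, fell from 32076 to 2917 reads (-3.23, interval -3.28 to -3.17) and Apoa1 from 2026 to 197 (-3.13, interval -3.35 to -2.92). Apob, another abundant marker, had 22158 and 25094 reads and 0.41 (0.38 to 0.44). Apoa2 had 0 and 5 reads, and Trf, Fgb and Cps1 had under 100 reads in each library, with Cps1 called higher at 19 and 55 (1.71, interval 0.99 to 2.60), so several adult hepatocyte genes were scarcely detected in either condition. The part of the losses of Alb, Apoa1 and Ttr in the ratios of lysosomal genes was not tested. In bulk RNA, fewer cells of a type and less RNA per cell cannot be told apart.

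Macrophages are rich in lysosomes, and their markers were examined together with those of fibroblasts. Of 15 macrophage markers, Adgre1, C1qa, C1qb, Tyrobp, Fcgr3, Marco and Clec4f had 0 reads in both libraries, and 4 reached 10 reads. The summed level per length of the list was 111 TMM-scaled RPKM in control cells and 45.5 in senescent cells, nearly all of it Cd14, the most abundant, which fell from 5551 to 1879 reads (-1.33, interval -1.41 to -1.26). The remaining 14 markers had 83 reads in control cells and 162 in senescent cells, with Csf1r at 15 and 40 (1.58, interval 0.76 to 2.61) and Ptprc at 27 and 76 (1.68, interval 1.07 to 2.41). The part of these changes in the ratios of lysosomal genes was not tested. Of 10 fibroblast and stellate cell markers, Col1a2, Col3a1, Lum, Acta2 and Thy1 had 0 reads in both libraries. The summed level per length of that list was 0.165 in control cells and 0.0633 in senescent cells on the same scale, with Col1a1 the most abundant in control cells at 21 reads and 1 read in senescent cells.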

How the data were processed

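RNAseq was measured in control and senescent AML12 cells, with 1 library per condition from RNA of 3 pooled cultures. The authors deposited raw counts of reads per gene for both libraries, by Ensembl identifier. The submitters' processing notes name CASAVA, STAR, DESeq2, edgeR and mm10. The counting tool, annotation and use of strand were not given in the sources used here. Columns were assigned by the initials of the sample titles.

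Symbols, exon lengths and positions came from GENCODE M21 on GRCm38 (mm10), and 97.8% of 35275 genes were matched. Promoter windows came from RefSeq on GRCm38.p6. Libraries were scaled by TMM (edgeR 4.0.16, R 4.3.3). Alternatives used DESeq2 1.42.0 size factors, upper quartiles and total counts. Ratios used Python 3.11.15, numpy 2.4.6, pandas 2.3.3 and scipy 1.17.1, plots matplotlib 3.10.9, and shared sequence blastn 2.17.0. Each ratio had a prior count of 1, set by library size, and a 95% Clopper-Pearson interval from the split of the gene's reads between libraries. Levels per length are RPKM over union exons with TMM-scaled library sizes. The method was tested on simulated data.

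Calls required at least 10 reads over both libraries, a ratio past the threshold and an interval without 0. The floor was 3 reads. Exon overlaps of members are named from 4.5% of exon bases, and for other genes where they touch a called value. For Ctsa, Idua, Siae and Hyal1, which overlap more than 1 gene, 1 overlap each is given. The 47 members, any other listed gene past 1.5-fold, the most abundant gene of a list, V-ATPase isoforms and markers were named, and 1 gene that this rule covers is not reported here. The members and lists were chosen with earlier results of these data known.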

Additional observations from a re-analysis of the deposited data

How the results depend on the processing

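No paired analysis was possible because each condition had 1 library. The count of members with a log2 ratio above 0 stayed between 32 and 36 under 8 alternatives, chosen for this count after seeing the data. The count past 1.5 on the log2 scale in the higher direction was 2, and was 1 with total counts, with a threshold of 2 and with intervals widened for a coefficient of variation of 0.4, each without Ctsl, and 3 with a threshold of 1, which added Npc1. In the lower direction it was 0, and 2 (Ctso and Tfeb) with a threshold of 1. At that threshold 5.09% of all genes were higher and 9.98% were lower. At 1.5-fold, 9 members were higher and 3 lower, against 1 and 0 with a coefficient of variation of 0.4 (1.69% and 3.97% of all genes), which widens every interval past most ratios. With at least 1000 reads, a filter chosen after seeing the data, 1 member was lower, since Ctso and Tfeb have fewer reads. With total counts the class medians were 0.090 for proteases, 0.11 for glycosidases, 0.35 for lipid hydrolases, 0.11 for membrane proteins and 0.24 for the V-ATPase. With at least 1000 reads they were 0.40 for proteases and 0.24 for the TFEB family, where Tfe3 alone was left. Of the lists outside the set, for which alternatives were chosen after seeing the data, total counts gave 0.0745 for sorting, -0.027 for other V-ATPase subunits, 0.46 for cystatins, 0.045 for other membrane proteins, -0.27 for other hydrolases and -0.085 for Ragulator and Rag genes (-0.017 with upper quartiles). At 1.5-fold, the lower genes among other hydrolases were 9 with total counts and 8 with upper quartiles against 5, among other V-ATPase subunits 1 with either against 0, and among Ragulator and Rag genes 2 with total counts against 1. Cystatins were at 0.14 with at least 100 or at least 1000 reads, where Cst6 drops out. Ragulator and Rag genes were at 0.12 with at least 1 or at least 1000 reads. Of single members, Lamp2 (-0.0016), Fuca1 (-0.097) and Mcoln1 (-0.067) were under 0 with total counts, and Fuca1 (-0.029) also with upper quartiles. Total counts moved 33 member ratios, besides Lamp2, out of their counting intervals and left 12 within, and upper quartiles moved 6, while DESeq2 size factors and prior counts moved 0 member ratios out of their intervals. With 1 library per condition the spread between cultures is unknown, so that ratios near 0 may not hold in other cultures. Depth limits Ctsk most.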
